A study of Mus musculus with 2 samples.

Results

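Mid-villus enterocytes were the barcodes of mouse small intestinal epithelium in which transcripts of Slc5a12, Cubn, Cyp3a11 and Slc2a2 outweighed those of 3 other enterocyte gene lists. They numbered 1838 of the 21629 barcodes in all, 714 from Adipfl/fl mice (the control library) and 1124 from Adipfl/flpVilli-CreT mice (the knockout library). A barcode entered the choice when it held more than 500 genes, under 25% mitochondrial UMIs (unique molecular identifiers, 1 per captured transcript molecule), under 1% goblet UMIs (Muc2, Tff3 and Zg16 together) and 0 UMIs of Cd3e, Cd3g, Tyrobp, Trpm5, Chgb, Olfm4 and Top2a. Each list was then scored as its share of the barcode's UMIs over its mean share, and members were selected on these UMI shares, as the barcodes in which the mid-villus list scored highest. The other lists were Car4, Plac8, Oat and Krt19 (the early set), Lypd8l, Areg, Bche and Slc51a (the Lypd8l set) and Ada, Nt5e, Slc28a2 and Ly6m (the tip set).

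Enterocytes are born in the crypt and migrate up the villus within days, and their transcripts change on the way. Cells at the base carry antimicrobial genes, cells in the middle carry much of the machinery that digests and absorbs sugars, peptides and vitamins, and cells at the tip carry apolipoprotein, adhesion and purine-handling genes. The same cells also differ along the length of the gut, the duodenum and jejunum taking up most nutrients and the ileum bile acids and cobalamin.

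Both groups were young adult male littermates carrying loxP-flanked Adipoq alleles, which encode the hormone adiponectin. Adipfl/flpVilli-CreT mice also carried Cre recombinase under the villin promoter, which is active in all lineages of the intestinal epithelium, so that the deletion was not limited to 1 of them. The epithelium, which the study describes as enriched for crypts, was pooled over animals into 1 library per genotype, and dead cells had been depleted before droplet capture with a 10x Genomics 3′ kit. There is thus no replicate, no test between genotypes was possible, and every interval below covers counting error only.

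The members held 3346415 UMIs in the control library and 5447475 in the knockout library. Their median depth was 3826 UMIs and 1363 genes per barcode in the former and 3763 UMIs and 1349.5 genes in the latter. Depth therefore differed little between the genotypes, whereas early-set barcodes were deeper, at 16344 and 16092 UMIs. The 2 libraries shared 31 barcode sequences over all barcodes and 0 among the members.

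The members lay close to the mitochondrial limit. Their median mitochondrial share was 21.3% in the control library and 20.7% in the knockout library, against 6.91% and 6.39% in the early set. Between 20 and 25% lay 63.3% of the control members (452 barcodes) and 56.2% of the knockout members (632). A further 2439 control and 1975 knockout barcodes met every other condition, scored highest for the mid-villus list and had 25% or more mitochondrial UMIs. The members are thus the low-mitochondrial end of 3153 and 3099 such barcodes, as the plot of mitochondrial share before the limit shows. RNA quality and the state of these cells were not tested as sources of any result below.

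**Figure D1:**
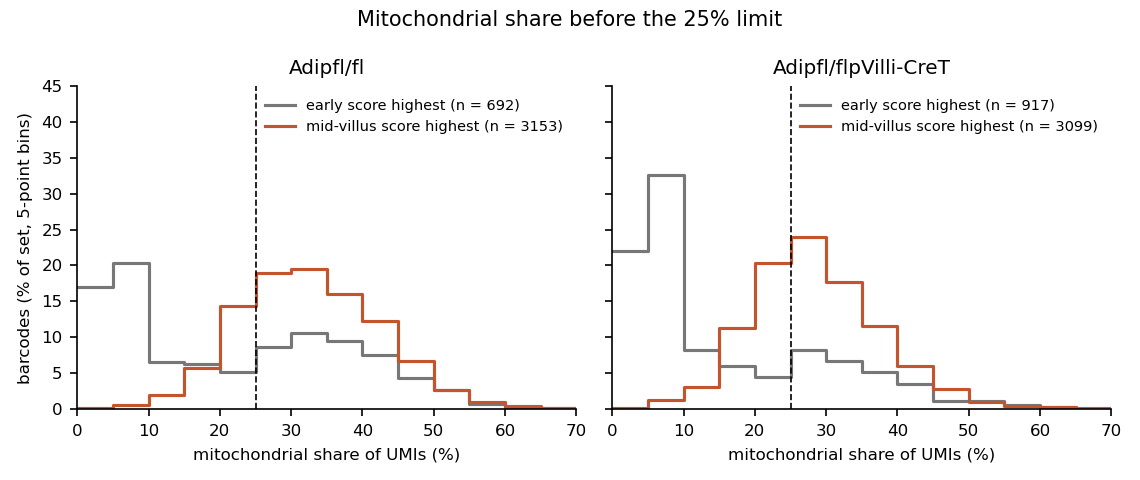
Share of barcodes (%, y axis, in bins of 5 points) by mitochondrial share of UMIs (%, x axis) for barcodes that met all other conditions and scored highest for the early list (grey) or the mid-villus list (orange), in each library; the dashed line is the 25% limit. Mid-villus barcodes are most frequent between 30 and 35% in the control and between 25 and 30% in the knockout library, while early barcodes are most frequent between 5 and 10%.

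The 4 score genes encode 2 transporters, a receptor and an enzyme. Slc5a12 (ENSMUSG00000041644, chr2:110597298-110647779 of GRCm38, plus strand) encodes a sodium-coupled lactate transporter. Cubn (ENSMUSG00000026726, chr2:13276338-13491813, minus strand) encodes cubilin, which takes up intrinsic factor with cobalamin together with its partner amnionless. Cyp3a11 (ENSMUSG00000056035, chr5:145854426-145879964, minus strand) encodes a cytochrome P450 that oxidizes drugs and steroids, and Slc2a2 (ENSMUSG00000027690, chr3:28697903-28731359, plus strand) the glucose transporter GLUT2. Cyp3a11 belongs to a family of closely similar genes, between which reads may have been divided.

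These genes chose the members, and their levels are a description. Levels here are UMIs summed over the barcodes of a set and scaled to 1000000 (CPM). Slc5a12 stood at 133 CPM in control and 172 CPM in knockout members, against 47.8 and 69.2 in the Lypd8l set and 7.83 and 6.40 in the tip set. Cubn stood at 496 and 406 CPM in members, against 203 and 174 in the Lypd8l set and 63.8 and 48.7 in the tip set. Both genes were highest in the members of each library, as was Cyp3a11, at 1116 and 1159 CPM against 502 and 565 in the tip set. Slc2a2 was at 229 and 421 CPM in members, 252 and 386 in the Lypd8l set, 244 and 343 in the early set and 9.03 and 19.2 in the tip set. Its level thus did not mark off the members from the lower villus, only from the tip.

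Cyp3a11 made up 56.5% of the score-gene UMIs in control members and 53.7% in knockout members, and 86.8% and 91.3% of members held at least 1 UMI of it. Cubn was found in 75.1% of control and 64.5% of knockout members, Slc2a2 in 46.5% and 58.8%, and Slc5a12 in 36.0% and 38.5%. T cell barcodes, in which these genes should be lacking, were set beside the members as a gauge of free RNA. They were the 454 control and 574 knockout barcodes that passed both quality limits with at least 2 UMIs of Cd3e and Cd3g together. The goblet limit and the other 0-UMI conditions were not applied to them. They held Muc2 at 36.1 and 1018 CPM, Olfm4 at 1.70 and 77.0 and Chgb at 72.3 and 43.6. Barcodes that mix a T cell with epithelium were thus not removed, and their part was not tested. Their median depth was 5378.5 and 4735 UMIs. After every barcode was thinned to 2000 UMIs, which left out 47 control and 54 knockout members, Cyp3a11 was found in 79.9% and 83.8% of members and in 5.02% and 7.94% of T cell barcodes. The thinned share of Slc5a12 was 19.9% and 24.5% in members and 0.228% and 0.945% in T cell barcodes.

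A median of 7 UMIs in control and 8 in knockout members, with ranges of 1 to 65 and 1 to 74, decided membership. In 40 control and 72 knockout members the mid-villus score was under 1.1 times the next score, and 19 and 52 barcodes outside the set came as near from below. The median mid-villus score of these near members was 1.62 and 1.499, and that of the near non-members 1.21 and 1.47. Only 120 control and 249 knockout members held UMIs of all 4 genes, and 95 and 200 held Cyp3a11 as their single score gene.

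A short stretch of the Cyp3a11 promoter is shown because this gene carries most of the score. Treh, a digestive enzyme gene also highest in the members, is shown beside it because its promoter holds the same letters, a choice made after the search. The capitals mark CAAAGTCCA, the letters of an HNF4 motif, on either strand. HNF4 factors are among the main activators of enterocyte genes.
Cyp3a11: aagagagtacCAAAGTCCAgtgatgcaaa
Treh: cctcatagccTGGACTTTGgctgacctgg
The first lies at chr5:145879945-145879973 on the minus strand and the second at chr9:44673152-44673180 on the plus strand of GRCm38.p6, with motifs that begin at -109 and -71 from the RefSeq gene starts. The start of Cyp3a11 in GENCODE M21 lies within the printed stretch, so this distance depends on the annotation. The letters occurred in 1 of the 3 score genes with a promoter entry (250 bases before to 50 after the start), in 1 of 17 (Treh) among the 20 genes that stood highest over each other set, and in 150 of 27025 genes in all (0.555%). The letters AGATAA of a GATA motif, searched likewise, occurred in 2 of those 17 and in 12.7% of all genes, and TTTATGG of CDX2 in 1 and in 3.21%. The HNF1 motif occurred in 0 and in 0.470%. The 18 genes selected for the highest ratios of members to another set were searched as well, and 13 had a promoter entry. The HNF4 letters occurred in 0 of these 13, AGATAA in 3, TTTATGG in 0 and the HNF1 motif in 0. An excess of the HNF4 letters was thus not seen in this set, and none was tested in any set. Letters in a promoter are not a measured binding site.

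The members' place on the villus was checked with genes outside the rule. Of 3525 genes over the minimum of 50 CPM, 37.2% were in descending order from the early set through the Lypd8l and mid-villus sets to the tip in both libraries, and 13% in ascending order. The early set was highest for 43.5%, the Lypd8l set for 9.76%, the members for 11% and the tip set for 21.2%. Of the 11 measured genes in the villus bottom list, 10 were in descending order. Reg3b, an antimicrobial lectin of the lower villus, went from 17302.5 and 19891.8 CPM in the early set to 8158 and 8876 in members and 3437 and 2147 in the tip set. Nlrp6, an epithelial inflammasome sensor, went from 368 and 355 CPM in the early set to 108 and 110 in members and 10.2 and 11.9 in the tip set. Of the 11 measured villus tip genes, all 11 were highest in the tip set and 9 were in ascending order. Krt20, a keratin of differentiated epithelium, stood at 832 and 859 CPM in the early set, 1903 and 2146 in members and 4537 and 4709 in the tip set. By these lists the members lay between the Lypd8l set and the tip set in both libraries.

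Markers of enterocytes as such were present: all 7 pan-enterocyte markers were above the minimum, summing to 64441 CPM in control and 62497 in knockout members against 2853 and 9104 in T cell barcodes. Goblet markers were the most abundant of another type, the 7 of them summing to 417 CPM in control and 987 in knockout members although the rule limits 3 of them. Zg16 stood at 144 and 375 CPM, Tff3 at 114 and 274 CPM and Muc2 at 68.1 and 142 CPM. Markers of the other types summed to less. The 8 T cell markers summed to 57.7 and 53.4 CPM, led by Gzma, the 5 myeloid markers to 5.98 and 3.12, the 4 stem cell markers to 0.896 and 1.101, the 5 cycling markers to 2.99 and 6.79, the 5 Paneth markers to 9.56 and 17.3, the 5 tuft markers to 2.39 and 3.30, the 5 fibroblast or muscle markers to 0.299 and 3.30, and the 4 erythroid markers to 0 and 0.184. The 4 B or plasma cell markers summed to 328 and 2.02 CPM, nearly all of it Jchain in 1 control barcode. Cd3e, Cd3g, Tyrobp, Trpm5, Chgb, Olfm4 and Top2a were at 0 through the rule. The 5 enteroendocrine markers summed to 85.5 and 121 CPM, led by Sct, with Neurod1 at 0, as was Mmp7 of the Paneth list.

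The members were also checked for region, since the labels give small intestinal epithelium, the study in places calls the cells ileal, and cubilin is known from the ileum and GLUT2 and Cyp3a11 from the proximal gut. Fabp6, the ileal bile acid-binding protein, had 0 UMIs in the members of both libraries, which allows up to 1.102 CPM in the control and up to 0.677 CPM in the knockout library. Slc10a2, the ileal bile acid transporter, had 12 and 18 UMIs (3.59 and 3.30 CPM). In the early set Fabp6 had 53 and 67 UMIs (7.86 and 5.80 CPM) and Slc10a2 5 and 11 UMIs (0.742 and 0.952 CPM). Slc10a2 stood at 1.74 and 3.15 CPM in the Lypd8l set and 1.81 and 3.89 CPM in the tip set. Its level in the members was thus not particular to them. Lct, the lactase of the proximal gut, stood at 1071 and 934 CPM. The 24 control members whose single score gene was Cubn held 0 UMIs of Fabp6 and an Lct level of 882 CPM, and the 10 such knockout members 0 UMIs and 1193 CPM. Both bile acid genes were thus at low levels in every enterocyte set. The wider regional lists did not separate in this way. Of 12 measured distal genes 7 were highest in the members (Mep1a, Naaladl1, Clec2h, Amn, Slc7a9, Tmigd1 and Dpep1), with a median log2 fold of 0.73 over the early set. Of 16 proximal genes it was 7, with a median of 0.16. Under the alternative settings described below, the distal median lay between 0.37 and 1.06 and the proximal median between -0.05 and 1.54. Which of these medians was higher thus depends on the settings. Summed, the proximal list stood at 26530 and 22981 CPM and the distal list at 6732 and 6936 CPM.

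Members differed among themselves in height. In 323 control (45.2%) and 518 knockout members (46.1%) the Lypd8l list scored next, in 250 and 318 (28.3%) the early list, and in 110 (15.4%) and 266 (23.7%) the tip list. Members with the tip list next held Nlrp6 at 16.2 and 20.5 CPM, against 128 and 141 in those with the early list next. Apoa4, an apolipoprotein highest at the tip, stood at 16812 and 14256 CPM in the former and 9402 and 6044 in the latter. Members with Cyp3a11 as their single score gene resembled the former, with Nlrp6 at 17.9 and 8.91 CPM and Apoa4 at 15194 and 14754. These splits use genes of the rule, and no test was made of them.

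Digestive and absorptive genes were mostly higher in the members than at the tip and close to the Lypd8l set. The numbers of genes at least 1.5-fold higher or lower than another set in both libraries are read against all genes. Counts of genes highest in the members are read against 11% of all genes. Over the tip set 1024 of 2713 genes were higher (37.7%) and 415 lower (15.3%), over the Lypd8l set 114 of 2922 were higher (3.9%) and 481 lower (16.5%), and over the early set 526 of 3289 were higher (16%) and 1138 lower (34.6%). The median log2 fold over all genes tested was 0.40 over the tip set, -0.14 over the Lypd8l set and -0.26 over the early set. The sets were made from the same barcodes, so these counts describe them and test nothing.

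Brush border peptidases cut peptides at the apical membrane. Of 12 measured, 8 were highest in the members in both libraries (Dpp4, Mme, Ace, Mep1a, Dpep1, Xpnpep2, Naaladl1 and Ggt1), 11 were at least 1.5-fold higher than in the tip set, and 0 differed by 1.5-fold from the Lypd8l set. Their median log2 fold was 1.46 over the tip set, 0.16 over the Lypd8l set and 0.74 over the early set. That over the Lypd8l set lay between -0.02 and 0.47 under the alternative settings. Dpp4, which removes dipeptides from peptide ends, stood at 860 and 1047 CPM in members, 748 and 848 in the Lypd8l set and 222 and 305 in the tip set. Ace, angiotensin-converting enzyme, stood at 771 and 591 CPM in members against 501 and 471 in the Lypd8l set and 243 and 200 in the tip set.

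The transporters that take up the products were divided between the sets. Of 12 measured amino acid and peptide transport genes, 5 were highest in the members, among them Slc15a1, Slc6a19, Slc7a9 and Slc3a1, 4 in the early set and 3 in the Lypd8l set. Over the Lypd8l set 1 was at least 1.5-fold higher and 2 lower, with a median log2 fold of -0.15. Under the alternative settings this median lay between -0.23 and 0.39, so its sign depends on them. Over the tip set 8 were at least 1.5-fold higher and 0 lower, with a median of 1.45. Slc15a1, the peptide transporter PepT1, stood at 379 and 483 CPM in the early set, 643 and 911 in the Lypd8l set, 936 and 1377 in members and 644 and 888 in the tip set. Slc6a19, the main neutral amino acid transporter, stood at 735 and 843 CPM in members against 665 and 650 in the tip set. The basolateral exchanger Slc7a7 instead stood at 195 and 208 CPM in the early set, 128 and 154 in members and 56.6 and 62.2 in the tip set. Its order was thus not that of the apical Slc15a1 and Slc6a19.

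Sugar genes split. All 9 measured against the tip set were at least 1.5-fold higher in members, with a median log2 fold of 1.87. Over the Lypd8l set 2 of 12 were higher and 3 lower, with a median of -0.42. The sign of the latter was not stable, with values between -0.51 and 0.23 under the alternative settings. Lactase (Lct), trehalase (Treh) and Pck1, the first committed enzyme of gluconeogenesis, were highest in members. Treh stood at 353 and 318 CPM in members, against 169 and 183 in the Lypd8l set and 169 and 169 in the tip set. Sis, the sucrase-isomaltase, stood at 4797 and 5332 CPM in the Lypd8l set, 2368 and 3034 in members and 241 and 387 in the tip set. Slc5a1, the sodium-glucose transporter SGLT1, stood at 3292 and 4204 CPM in the Lypd8l set, 2473 and 3614 in members and 548 and 852 in the tip set.

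Vitamin uptake genes were the list with the largest share highest in members, 5 of 7 (Amn, Tcn2, Slc23a1, Slc52a3 and Rbp2), beside 11% of all genes. Amn, the amnionless partner of the score gene Cubn, stood at 293 and 321 CPM in the early set, 519 and 594 in the Lypd8l set, 778 and 805 in members and 500 and 557 in the tip set. Tcn2, the plasma carrier of cobalamin, stood at 582 and 562 CPM in members against 477 and 512 in the Lypd8l set, a difference under 1.5-fold. Slc52a3, a riboflavin transporter, stood at 166 and 177 CPM in members, against 101 and 95.7 in the Lypd8l set. Lrp2, the megalin with which cubilin works in the kidney, had 0 UMIs in the members.

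Genes of xenobiotic metabolism, the group of the score gene Cyp3a11, were highest in members in 8 of 21 cases (Cyp2b10, Cyp2d26, Cyp4f14, Ces2c, Abcb1a, Abcg2, Abcc2 and Ephx2). Cyp2b10 stood at 236 and 245 CPM in members, 167 and 151 in the Lypd8l set and 65.0 and 67.2 in the tip set. Cyp3a13, a relative of Cyp3a11, stood at 969 and 996 CPM in members and 1030 and 1018 in the tip set, and Cyp3a25, another relative, at 216 and 170 and at 34.3 and 35.4. These relatives therefore differed in their order over the sets. Gsta1, a glutathione transferase, stood at 273 and 226 CPM in the early set and 22.1 and 17.6 in members.

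Lipid genes were divided among the sets. Of 22 measured, 6 were highest in members (Fabp2, Dgat1, Gpat3, Abcg5, Abcg8 and Soat2) and 7 in the tip set, beside 11% and 21.2% of all genes. The early set was highest for 3 and the Lypd8l set for 3. Abcg5 and Abcg8 encode the subunits of a sterol exporter. Abcg5 stood at 528 and 406 CPM in members against 335 and 328 in the Lypd8l set, and Abcg8 at 322 and 245 CPM against 247 and 220. Apob, the structural protein of chylomicrons, was highest at the tip, with 2760 and 2527 CPM in the Lypd8l set, 4404 and 4176 in members and 7617 and 6545 in the tip set, whereas Mttp, which loads it with lipid, stood at 1324 and 1413 CPM in members and 719 and 683 in the tip set.

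All 19 nuclear genes of oxidative phosphorylation were in descending order from the early set to the tip in both libraries. Of these, 18 were at least 1.5-fold lower in members than in the early set, with a median log2 fold of -1.44. Under the alternative settings this median stayed below 0 but lay between -1.72 and -0.22. The mitochondrially encoded subunits had no such order, and 0 of 12 were highest in the early or tip set. Against the early set 8 were at least 1.5-fold higher in members and 0 lower, with a median log2 fold of 0.90, and over the tip set the median was 0.36. The mitochondrial share of the members, on which the rule sets a limit, moves with the second result, and its part in the first was not tested. When mitochondrial UMIs were left out of the total, 790 genes rather than 526 were higher than in the early set.

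The remaining lists were mixed, and their counts are read beside the 11% of all genes that were highest in members. Several were near that share. Of 11 antigen presentation genes 5 were highest in members (B2m, H2-Aa, H2-Ab1, H2-Eb1 and Cd74), and the class II gene H2-Ab1 stood at 290.5 and 263 CPM against 218 and 197 in the Lypd8l set. Of 11 brush border structure genes 4 were highest in members, of 16 transcription factors 2 (Gata6 and Maf) and of 12 fat oxidation genes 2 (Angptl4 among them). The same held for 2 of 10 metal and mineral genes, 1 of 5 carboxylate transport genes (Slc13a2) and 0 of 9 immediate early and heat shock genes. Maf stood at 1032 and 928 CPM in members and 154 and 131 in the tip set, and Hnf4g at 335 and 316 against 53.0 and 58.5, while Hnf4a stood at 242 and 260 against 422 and 429. The metal and mineral list had a median log2 fold of 0.80 over the tip set and -0.79 over the early set. The 4 carboxylate transport genes measured over the tip set had one of 1.28.

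**Figure D2:**
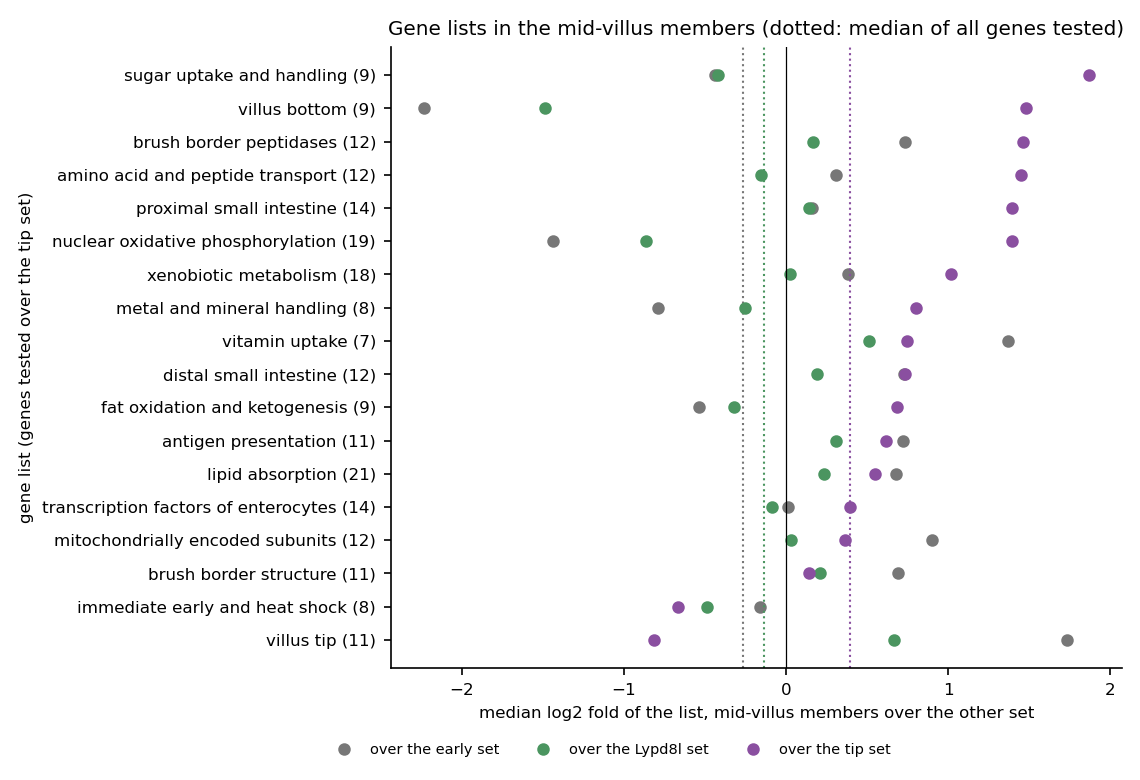
Median log2 fold of each gene list in the members over the early (grey), Lypd8l (green) and tip set (purple), averaged over both libraries (x axis), with the number of genes tested over the tip set beside each name; dotted lines give the median of all genes. Sugar genes and peptidases lie at 1.87 and 1.46 over the tip set, and the villus tip list at -0.81.

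Only 12 genes (0.34% of the 3525) were at least 1.5-fold higher in members than in each other set in both libraries: Stab1, Pck1, Slc7a15, Aqp1, Podn, Treh, Sectm1b, Slc52a3, Tbx3, Ephx2, Enpp7 and Clcn2. Enpp7, the alkaline sphingomyelinase that digests dietary sphingomyelin, stood at 185 and 204 CPM in the early set, 438 and 504 in the Lypd8l set, 739 and 788 in members and 372 and 355 in the tip set. Aqp1, a water channel, stood at 134 and 123 CPM in members, with at most 70.5 in any other set. Slc7a15, which belongs to a family of amino acid transporters, stood at 284 and 313 CPM in members and at 133 and 165 in the Lypd8l set. Over the 8 values of 4 sets in 2 libraries, the genes whose levels followed the summed score genes most closely were Rnf167, Slc7a15, Slc52a3, Aqp1 and Ephx2, with Pearson correlations of at least 0.938 on the log2 scale. These values share libraries and depth, and the correlations are a description.

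Among the genes with the highest ratios to the early and Lypd8l sets, several were higher still at the tip. Enpp3, an ectonucleotidase, stood at 16.3 and 20.0 CPM in the early set, 337 and 363 in members and 1198 and 1061 in the tip set. Clca4a followed the same course, with 32.5 and 78.5, 706 and 1028, and 6924 and 6638 CPM, as did Pmp22. Susd2, at 159 and 157 CPM in members and 158 and 197 in the tip set, and Aldh4a1, at 94.7 and 140 and 86.1 and 101, were closer to their tip level, Susd2 in the knockout library remaining below it at 0.797 (0.724 to 0.877). Of the 8 genes lowest relative to the early set, 5 encode ribosomal proteins, and Rpl3 stood at 622 and 564 CPM in the early set against 12.0 and 13.4 in members. Gpx1, a glutathione peroxidase, stood at 647 and 587 CPM in the early set against 19.1 and 19.6.

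Of the 8 genes with the highest ratios to the tip set, most were higher in the early or Lypd8l set than in the members. Maob, a monoamine oxidase, stood at 204 and 218 CPM in the early set, 59.2 and 87.7 in members and 3.61 and 4.80 in the tip set. Ppargc1a, a coactivator of mitochondrial genes, took the same course, with 107 and 99.1 CPM in members and 8.43 and 6.86 in the tip set. Angptl4, an inhibitor of lipoprotein lipase, was highest in members, at 53.2 and 105 CPM against 2.41 and 7.55 in the tip set. In the other direction Cldn4, a tight junction claudin, stood at 59.8 and 118 CPM in members and 1704 and 2030 in the tip set, and Marcksl1 at 3.29 and 5.87 against 185 and 195.

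**Figure D3:**
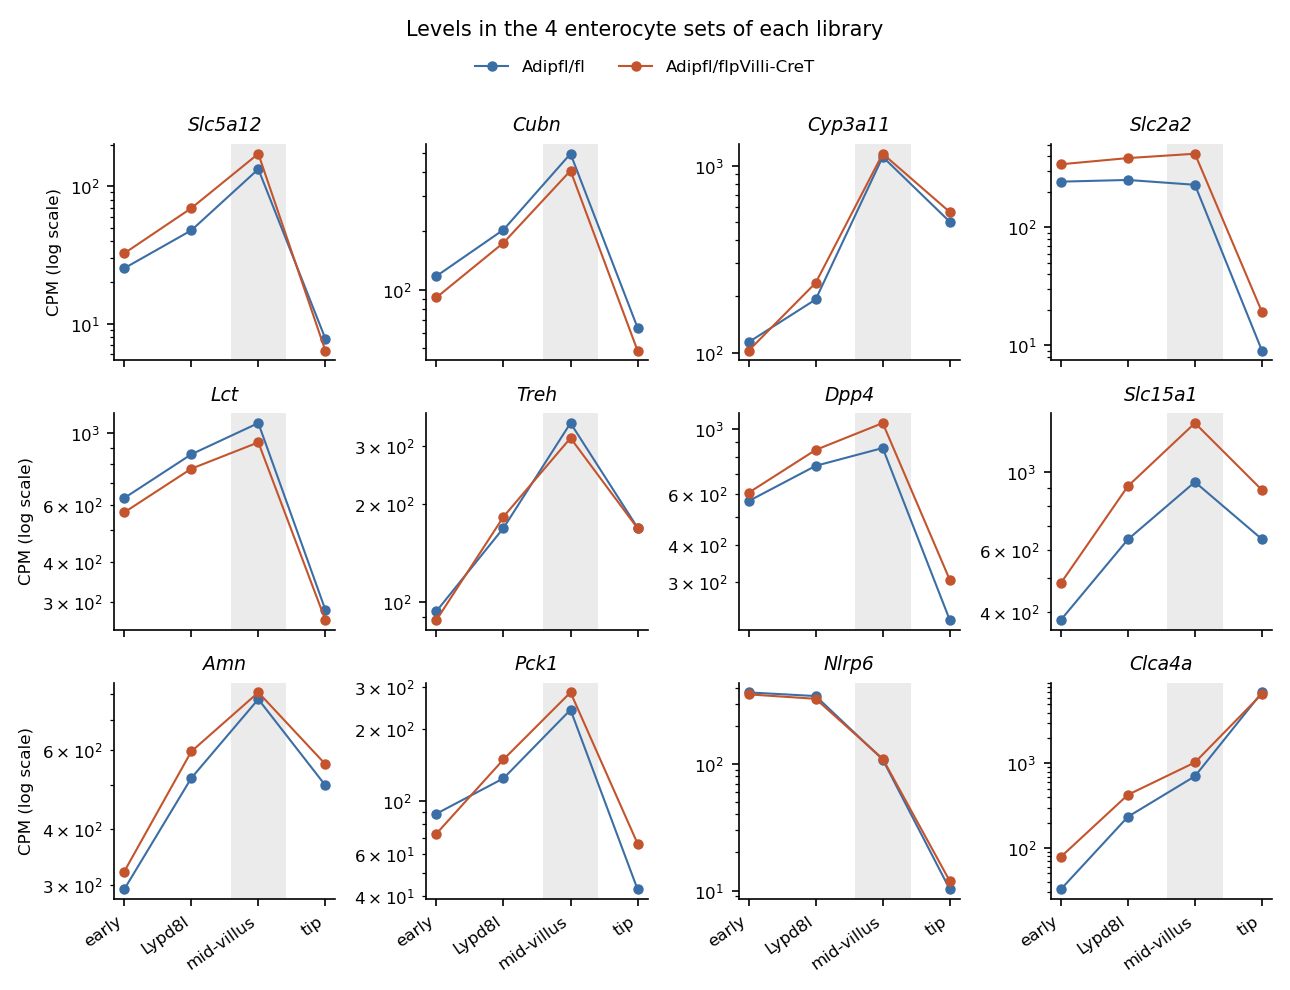
CPM (log scale, y axis) of the 4 score genes and 8 other genes in the early, Lypd8l, mid-villus (shaded) and tip sets (x axis) of the Adipfl/fl (blue) and Adipfl/flpVilli-CreT library (orange). Lct, Treh, Dpp4, Slc15a1, Amn and Pck1 peak in the members of both libraries, Nlrp6 descends and Clca4a ascends along the order, and Slc2a2 is low only at the tip.

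Members made up 37.3% (95% interval 35.2 to 39.6) of the 1912 control barcodes that passed the filters of the rule and 31.6% (30.0 to 33.1) of the 3560 knockout barcodes. The ratio of the knockout share to the control share was 0.845 (0.769 to 0.930). It was 0.942 (0.830 to 1.071) for the early set, 0.873 (0.770 to 0.991) for the Lypd8l set and 1.47 (1.31 to 1.65) for the tip set. These shares are parts of the same barcodes, so a rise in 1 set lowers the others, and the lower ratio was not particular to the members. The score genes themselves differed between the genotypes, as described below, so the share is not independent of expression. When barcodes were scored anew under a mitochondrial limit of 10%, the ratio turned to 1.17 (0.915 to 1.498). Of the 97 control and 221 knockout barcodes then called mid-villus, only 17 and 43 were members and 73 and 150 came from the early set, so this limit changed the membership as well. With no such limit it was 0.810 (0.766 to 0.856).

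Within the members, few genes differed between the genotypes by 1.5-fold. Of 2787 genes that reached 50 CPM in 1 genotype or the other and 20 UMIs over both, 55 were higher (1.97%) and 36 lower (1.29%) in the knockout library, with a median log2 fold of 0.06. The counts depend on the settings, and among the 172 members with 0 goblet UMIs they were 450 and 520, at a depth of 132379 UMIs in the knockout library.

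Mt1 had the highest ratio. It encodes metallothionein 1, a small protein that binds zinc and copper. It had 363 UMIs (108 CPM) in control members and 10001 UMIs (1836 CPM) in knockout members, a fold of 16.9 (15.2 to 18.8), and was found in 22.1% and 91.1% of members. After thinning the shares were 13.5% (11.0 to 16.3) and 84.5% (82.2 to 86.6). In T cell barcodes Mt1 stood at 37.8 and 674 CPM, with thinned shares of 4.79% and 25.9%, and the part of free RNA in the difference was not tested. Mt1 was higher in the knockout library in every enterocyte set, with folds of 3.61 in the early, 5.64 in the Lypd8l and 74.9 (53.3 to 109) in the tip set. In the control library its level went from 885 CPM in the early set to 19.9 in the tip set, and in the knockout library from 3196 to 1488.

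Among the 262 control and 492 knockout members under 20% mitochondrial UMIs the fold of Mt1 was 13.6 (11.9 to 15.6). Among the 20 and 44 under 10% it was 11.01 (8.13 to 15.3), and with no limit 25.1. In the barcodes scored anew under a 10% limit, most of them from other sets, the fold of Mt1 was 4.01 (3.76 to 4.27). Its neighbour Mt2, the other metallothionein common to most tissues, had 20 and 35 UMIs in members (5.98 and 6.42 CPM), a fold of 1.08 (0.604 to 1.97). Mt1 was the only one of 8 measured metal and mineral genes past 1.5-fold, while the list's summed level was 2496 CPM in control and 4263 in knockout members.

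Of the other 9 genes with the highest ratios, several were higher in all enterocyte sets. Nos2, the inducible nitric oxide synthase, had 48 UMIs (14.3 CPM) in control and 283 UMIs (52.0 CPM) in knockout members, a fold of 3.62 (2.66 to 5.03), and lay between 3.07 and 3.23 in the other enterocyte sets. Noct, a circadian phosphatase, stood at 63.9 and 150 CPM, a fold of 2.34 (2.01 to 2.74), and was higher in all 3 other sets. Barx2, a homeobox factor, stood at 30.5 and 64.1 CPM, and the mitochondrial gene mt-Nd3 at 752 and 1932 CPM, a fold of 2.57 that was 2.67 in the tip set and 3.65 in T cell barcodes.

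Phlda1, Ptger4 and Ubd had folds of 2.51 (1.95 to 3.28), 2.43 (1.98 to 3.001) and 2.20 (1.88 to 2.60) in members. Ptger4 encodes the prostaglandin receptor EP4 and Ubd a ubiquitin-like modifier induced by cytokines. The folds of Ptger4 were 1.13, 2.16 and 1.38 in the early, Lypd8l and tip sets, and those of Ubd 1.54, 1.5004 and 1.32. Phlda1 stood at 0.960, 1.03 and 1.04 in these 3 sets, but its level was 22.4 and 56.4 CPM in members and 132 and 137 CPM in the tip set. Ptger4 stood at 35.3 and 85.7 CPM in members and 298 and 410 in the tip set. The tip list scored next in 15.4% of control and 23.7% of knockout members, and the part of this difference in the 3 folds was not tested. Among members under 20% mitochondrial UMIs the folds were 2.69, 2.003 and 2.25, and among the 20 and 44 under 10% that of Ptger4 turned to 0.279 (0.0798 to 0.917), that of Phlda1 being 2.05 (0.447 to 19.0) and that of Ubd 7.44 (1.19 to 308). In the barcodes scored anew under a 10% limit, most of them from other sets, Phlda1 stood at 0.471 (0.283 to 0.785), Ptger4 at 0.849 (0.427 to 1.76) and Ubd at 0.474 (0.269 to 0.836). Spink4, a goblet cell gene, stood at 17.3 and 52.1 CPM in members and 12.3 and 259 CPM in T cell barcodes. The goblet markers, described above for the members, summed to 255 and 5863 CPM in T cell barcodes, and their part in the result was not tested. Gm10076, a predicted gene, stood at 25.1 and 54.7 CPM.

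The 3 lowest ratios came from 1 barcode. Jchain, Igkc and Igha, which encode parts of secreted antibody, had 1088, 8474 and 1810 UMIs in control members and 11, 139 and 44 in knockout members. A single control barcode held 1083, 8416 and 1782 of these UMIs, 99.5%, 99.3% and 98.5% of them. Without the member richest in Igkc in each library, the folds were 1.35, 1.44 and 0.963 in place of 0.00621, 0.0101 and 0.0149. Igkc was found in 55 of 714 control and 129 of 1124 knockout members (7.70% and 11.5%), and in 8.37% and 9.76% of T cell barcodes. After thinning the shares were 5.25% and 5.79% in members and 2.51% and 2.27% in T cell barcodes.

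Other low ratios were spread over many members. Clec2d, a C-type lectin-like ligand, stood at 417 CPM in control and 218 in knockout members, a fold of 0.524 (0.484 to 0.566), and was found in 77.6% and 56.3% of members. Its fold was 0.831 in the early, 0.686 in the Lypd8l and 0.366 in the tip set. Slc17a4, an organic anion transporter of the apical membrane, stood at 156 and 75.1 CPM (0.480, 0.421 to 0.548) and Clca3a1 at 113 and 55.4 CPM (0.492, 0.422 to 0.574). Both were also under 0.5 in the tip set and above 0.7 in the lower sets. Mir6236 was at 0.408 in members, between 0.460 and 0.471 in the other enterocyte sets and at 0.380 in T cell barcodes. Tmem140, Ivns1abp and Exph5 had folds of 0.419, 0.420 and 0.469.

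**Figure D4:**
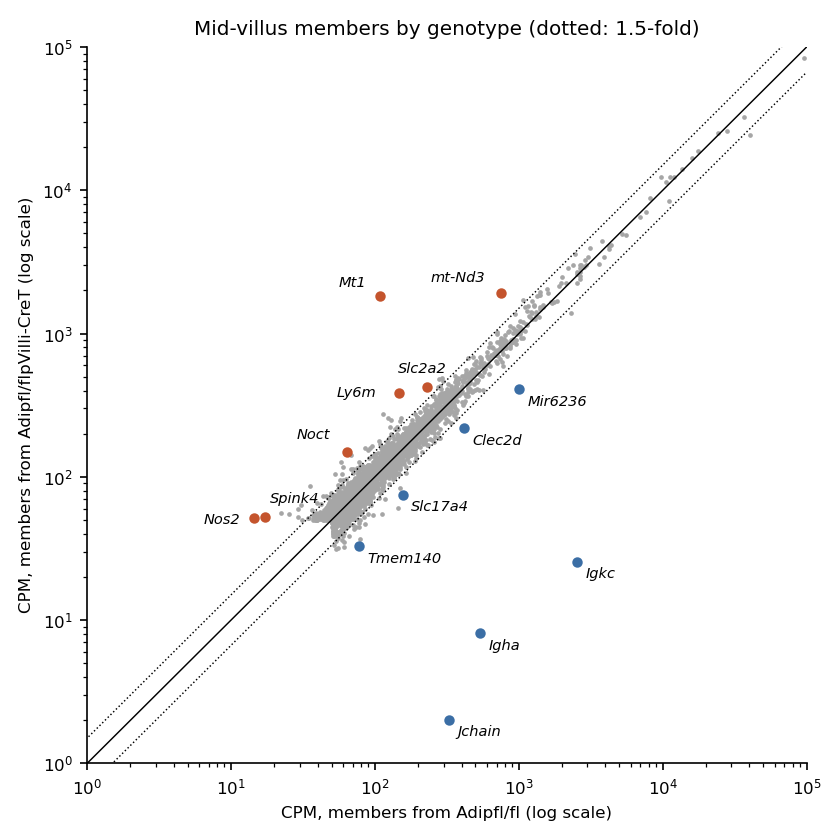
CPM in members of the Adipfl/fl library (x axis, log scale) and of the Adipfl/flpVilli-CreT library (y axis, log scale), 1 point per gene of at least 50 CPM in either; the solid line is equality and dotted lines 1.5-fold, and named genes are orange where higher and blue where lower in the knockout library. Mt1 and mt-Nd3 lie above the cloud, and Igkc, Igha and Jchain, which rest on 1 control barcode, far below it.

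**Figure D5:**
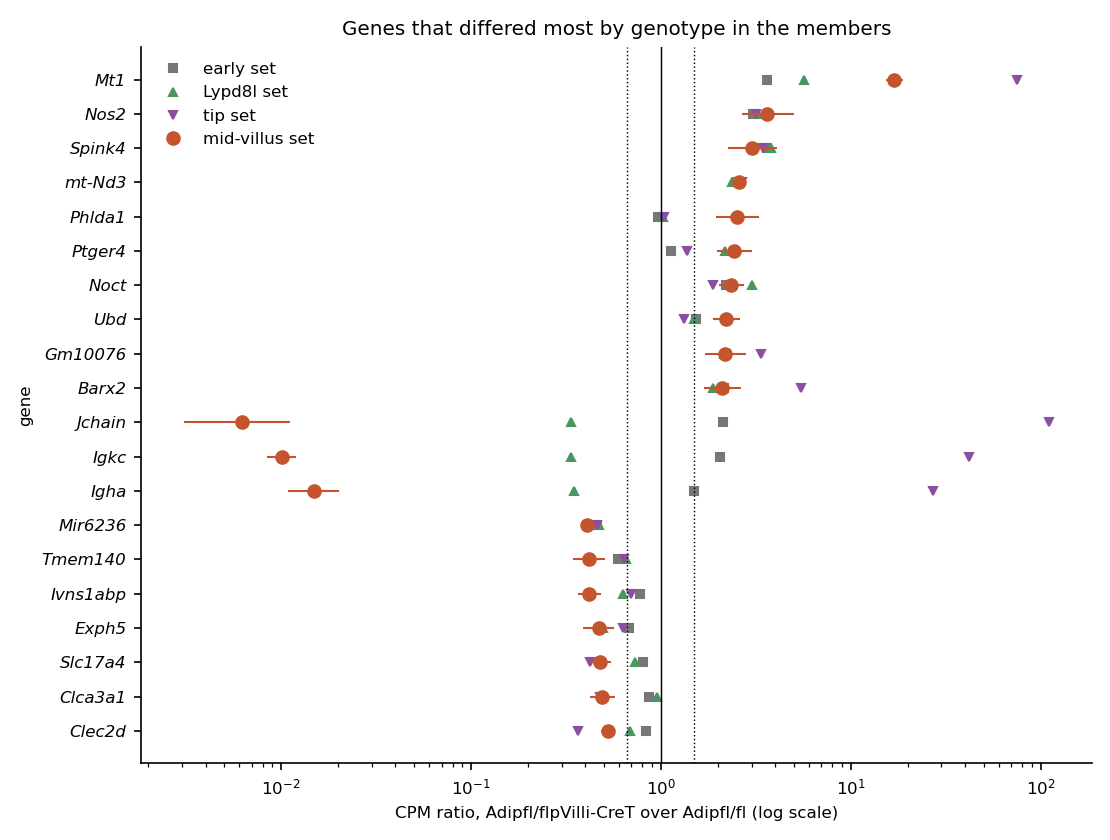
Ratio of CPM in the Adipfl/flpVilli-CreT library to that in the Adipfl/fl library (x axis, log scale) for the 10 genes of highest and the 10 of lowest ratio in members, in each enterocyte set; lines are 95% counting intervals for the members and dotted lines mark 1.5-fold. Mt1 is above 1.5 in every set and Phlda1 in the members alone. The antibody genes are below 1 in the members and the Lypd8l set and above it in the early and tip sets.

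By function, few genes of the digestive and absorptive lists were past 1.5-fold, as few as among all genes (1.97% and 1.29%). Over the lists of sugar handling, amino acid transport, peptidases, vitamin uptake, lipid absorption, brush border structure, antigen presentation, proximal genes, enterocyte transcription factors and nuclear oxidative phosphorylation, 0 genes were past 1.5-fold in either direction. Of 12 distal genes 1 was higher (Tmigd1, at 283 and 430 CPM), as were 1 of 3 carboxylate transport genes (Slc13a2, at 151 and 258 CPM) and 1 of 10 villus tip genes. Of 19 xenobiotic genes 1 was lower. The glucose transporter Slc2a2 is a gene of the rule and not in these counts. Slc15a1 and Slc5a1 came nearest, at 1.47 (1.41 to 1.53) and 1.46 (1.42 to 1.499). Of 10 measured fat oxidation genes Angptl4 was higher, at 53.2 and 105 CPM (1.98, 1.67 to 2.36), and Acadl, a mitochondrial acyl-CoA dehydrogenase, lower, at 61.0 and 32.5 CPM (0.533, 0.433 to 0.655). Of 8 immediate early and heat shock genes 3 were higher and 0 lower, among them Egr1 at 58.9 and 104 CPM and Atf3 at 68.4 and 113 CPM.

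Among the genes used by the rule, Slc2a2 stood at 229 and 421 CPM (1.83, 1.69 to 1.99), Slc5a12 at 1.29, Cyp3a11 at 1.04 and Cubn at 0.819 (0.768 to 0.873) of the control level. Slc2a2 was higher in the knockout library in the early and Lypd8l sets as well. The tip genes Ly6m, at 147 and 387 CPM, and Ada, at 298 and 464 CPM, were also higher in knockout members, and in T cell barcodes their folds were 4.07 and 3.16 and that of Slc2a2 11.8. The part of free RNA in these differences was not tested. Among the 20 and 44 members under 10% mitochondrial UMIs, however, Ly6m turned to 0.186 (0.0905 to 0.365).

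The ratio of the summed proximal to the summed distal list was 3.94 in control and 3.31 in knockout members, a quotient of 0.841 (0.825 to 0.857). Apoa4, the most abundant proximal gene, which also belongs to the villus tip list, stood at 10987 and 8396 CPM, and without it the quotient was 0.911 (0.893 to 0.929). The median log2 fold by genotype was -0.10 over 14 proximal and 0.02 over 12 distal genes.

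The targeted gene could not be followed in these cells. Adipoq had 1 UMI over all control barcodes, 0 over all knockout barcodes and 0 in the members of either library, which checks no label. Both adiponectin receptors were present, Adipor1 at 87.0 and 90.5 CPM (1.04, 0.899 to 1.21) and Adipor2 at 347 and 318 CPM (0.917, 0.851 to 0.989).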

How the data were processed

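The authors converted reads with bcl2fastq 5.0.1 and counted them with Cell Ranger (7.1.0 in the file headers, build mm10 per the submitters' processing notes). The deposited values are raw UMI counts per gene and barcode, not normalized, and include barcodes outside the study's stated quality limits. With all mitochondrial genes counted, these limits left 3069 control and 5555 knockout barcodes, fewer than the study kept; how it computed the mitochondrial share is not given in the sources used here. With the share taken over 13 mitochondrial genes there were 2557 and 2438 members. Doublets were not removed; an alternative left out the 8% of barcodes with the most UMIs. Members and gene lists were chosen with earlier results of these data known. Named genes were the rule's genes, list members, the 10 highest and lowest ratios by genotype and the 8 largest folds each way against each set. Some genes that this rule selects are only counted or not reported here. Shares have Clopper-Pearson and folds exact Poisson 95% intervals, with 3 UMIs in place of 0. The 26 genes that the rule names were left out of counts, whereas the mitochondrial genes behind its limit were kept in. Promoters came from RefSeq (GRCm38.p6), positions from GENCODE M21. In simulated counts of 2666 genes for the genotype comparison, 95.8% of intervals held the true fold. These counts were drawn from the Poisson model behind the intervals, so they check the calculation only. UMIs gathered in single barcodes were not simulated. Python 3.11.15, numpy 2.4.6, scipy 1.17.1 and pandas 2.3.3 were used. Depth is given in the report; intervals cover counting error only, and pooled animals give no spread.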

Additional observations from a re-analysis of the deposited data

Results flagged for a closer look

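In barcodes outside the comparisons, 2439 control and 1975 knockout barcodes failed the mitochondrial limit alone and scored highest for the mid-villus list, more than the 714 and 1124 members. The antibody genes differed in direction between sets, a difference that was not tested. Jchain was at 0.00621 of the control level in members, 0.334 in the Lypd8l set, 2.11 in the early set and 110 in the tip set. Igkc was at 0.0101 in members, 0.335 in the Lypd8l set, 2.04 in the early set and 42.0 in the tip set. Igha was at 0.0149, 0.348, 1.503 and 27.1 in the same order. The members were thus not the only set below the control level. In members 1 control barcode held 98.5% or more of the control UMIs of each.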

How the results depend on the processing

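No paired analysis was possible because each genotype had 1 library. Over the alternatives, 133 of the main values and counts stayed within their error or 1.5 times, 39 moved and 1 turned in direction, and of single genes, lists and shares 1121 stayed, 480 moved and 16 turned; the cause was not tested beyond what each setting changes. Scored anew under a mitochondrial limit of 10%, which replaced most members, the ratio of member shares was 1.17 in place of 0.845, and the folds of Phlda1, Ptger4 and Ubd were 0.471, 0.849 and 0.474. The median log2 fold of the metal and mineral list over the early set was then 0.17 in place of -0.79. At this limit 636 genes were lower than in the early set, 199 lower than in the Lypd8l set and 530 higher than in the tip set.

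The 55 genes higher in the knockout library became 93 with the limit on 13 mitochondrial genes, 33 without Cyp3a11 in the list, 124 at 20 CPM and 15 at 200 CPM. The 36 lower became 19 with the limit on 13 genes, 103 at 20 CPM and 8 at 200 CPM. Of the alternatives chosen after seeing the data, no mitochondrial limit gave 96 and 19, members with 0 goblet UMIs gave 450 and 520, and the 20 and 44 members under 10% mitochondrial UMIs with unchanged scores gave 454 and 405, against 66 and 48 for members under 20%. At 10%, Ptger4 was at 0.279 and Ly6m at 0.186.

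The 526 genes higher than in the early set became 790 with mitochondrial UMIs left out and 183 at 200 CPM, and the 1138 lower became 2011 at 20 CPM and 370 at 200 CPM. The 114 genes higher than in the Lypd8l set became 12 with the limit on 13 genes, 26 without Cyp3a11, 67 without the 8% deepest barcodes, 42 by the mean per barcode, 184 at 20 CPM, 46 at 200 CPM and 12 with no limit. The 481 lower became 246, 160 without Cyp3a11, 316 by the mean per barcode, 834 at 20 CPM, 163 at 200 CPM and 237 with no limit. Over the tip set 2015 were higher at 20 CPM and 262 at 200 CPM, and 175 lower at 200 CPM.

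The quotient of proximal to distal sums, 0.841, was 0.869 without Cubn, 0.879 without Cyp3a11 and, chosen after seeing the data, 0.911 without Apoa4. The fold of Jchain was 1.34 with at least 2 score UMIs, 1.65 without Cyp3a11, 6.26 with 0 goblet UMIs and 1.35 without the richest member. That of Igkc was 1.47 with at least 2 score UMIs, 1.56 without Cyp3a11, 1.47 after thinning, 2.39 with 0 goblet UMIs and 1.44 without the richest member, and that of Igha was 1.11 without Cyp3a11. Mt1 ranged from 4.01, scored anew under the 10% limit, to 25.3 with the limit on 13 mitochondrial genes. Depth limits genes near the 50 CPM minimum, and no setting replaces replicate libraries.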
